A study of Mus musculus with 18 samples.

Results

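Msln, Dmkn, Cldn15 and Lgals7 are 4 genes whose products are known from mesothelium and other epithelia, followed here across 6 days of mouse heart development. They are 4 of the 10813 genes tested. They were chosen because their mean intensities at E15.5 and E16.5 stood above those of the earlier days in these same arrays. Their own levels and differences are therefore given as a description with no test. The study profiled GFP-bright cells sorted by flow cytometry from heart ventricles that had been enzymatically dissociated, and its stated purpose was to characterise epicardial cells enriched in this way. All 6 groups come from Wt1GFPKI mice, in which GFP is knocked in at Wt1, and they differ in embryonic day alone, E11.5, E12.5, E13.5, E14.5, E15.5 and E16.5, with 3 arrays each. The labels give no strain, no number of embryos per sort and no GFP-dim sort. Total RNA of the sorted cells, with an input of 200 ng, was made into biotin-labelled cRNA and read on an Illumina bead array, in which each gene is measured by 1 or more short probes.

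The epicardium is the mesothelium of the heart, a single layer of flat epithelial cells that covers the myocardium and also sends out cells that form fibroblasts and mural cells. Mesothelial cells line the body cavities as well, where they carry keratins, uroplakins and a coat of glycoproteins. Msln encodes mesothelin, a surface glycoprotein held in the membrane by a lipid (GPI) anchor, which is a standard marker of adult mesothelium and binds the mucin encoded by Muc16. Cldn15 encodes a claudin, a tight junction protein known in the gut for forming pores that let cations pass between cells. Dmkn encodes dermokine, a secreted protein described first in the upper layers of the skin. Lgals7 encodes galectin-7, a sugar-binding lectin known from stratified epithelia and as a p53-induced gene in human cells.

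The start-site sequences are shown so that the letters before the starts of genes with high late levels can be set side by side. The RefSeq promoter table of assembly GRCm38.p6 gave windows of 300 bases, from 250 before to 50 after the start, for 3 of the 4 genes. Msln was not among them. Each window is printed on the + strand, which is the strand of all 3 genes, in lower case with the letters TGANTCA, the core bound by AP-1 factors, in capitals. The motif was chosen after the sequences were seen. It reads the same on both strands apart from its middle base, and 7.81% of 32851 windows of this length hold it. The first Dmkn window is chr7:30763506-30763805 and the second, at a start site within the gene, is chr7:30776155-30776454. The Cldn15 window is chr5:136967619-136967918 and the Lgals7 window is chr7:28864136-28864435.
Dmkn, first start: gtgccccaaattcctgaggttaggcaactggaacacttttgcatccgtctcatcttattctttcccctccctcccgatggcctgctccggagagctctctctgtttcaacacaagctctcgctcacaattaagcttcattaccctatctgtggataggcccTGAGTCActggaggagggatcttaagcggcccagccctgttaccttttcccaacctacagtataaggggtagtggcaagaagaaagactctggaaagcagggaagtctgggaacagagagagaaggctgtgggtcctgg
Dmkn, internal start: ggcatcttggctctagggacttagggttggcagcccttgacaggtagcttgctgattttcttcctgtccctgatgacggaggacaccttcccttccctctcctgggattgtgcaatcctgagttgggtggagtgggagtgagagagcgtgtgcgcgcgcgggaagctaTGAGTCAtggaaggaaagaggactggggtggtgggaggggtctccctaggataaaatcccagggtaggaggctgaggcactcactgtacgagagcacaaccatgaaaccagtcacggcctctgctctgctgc
Cldn15: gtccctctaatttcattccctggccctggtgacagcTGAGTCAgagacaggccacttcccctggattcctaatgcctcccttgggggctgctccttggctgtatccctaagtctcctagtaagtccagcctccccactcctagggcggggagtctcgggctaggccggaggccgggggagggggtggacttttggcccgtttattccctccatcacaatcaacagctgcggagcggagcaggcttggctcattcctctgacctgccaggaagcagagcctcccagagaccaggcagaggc
Lgals7: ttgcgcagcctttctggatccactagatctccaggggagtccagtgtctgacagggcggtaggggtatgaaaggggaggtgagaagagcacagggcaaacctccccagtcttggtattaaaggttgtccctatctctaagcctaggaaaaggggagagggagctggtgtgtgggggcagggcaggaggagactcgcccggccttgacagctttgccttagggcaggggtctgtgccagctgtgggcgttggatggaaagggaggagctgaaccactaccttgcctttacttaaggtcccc
The Dmkn windows each hold TGAGTCA, whose first base lies at -89 of the first start and at -82 of the internal start. The Cldn15 window holds TGAGTCA at -214. The Lgals7 window does not hold these letters. The letters GGAATG, the core bound by TEAD factors, read on both strands, occur 2 times in the Cldn15 window and in neither the Dmkn nor the Lgals7 windows, against 14.7% of all windows that hold them.

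All values below are the authors' normalized intensities, in which the background level is still contained. A floor of 109.2 intensity units, set at a tail of 0.01 of the background, marks what counts as above background. The array carries 10 probes for the 4 genes, of which 8 passed a filter that asked for 3 or more arrays above this floor, and each gene is described first by its brightest probe. The 4 genes all passed, and each was above the floor on the 3 arrays of E11.5 as well as on those of E16.5. Intensities are listed in the order of replicates 1, 2 and 3.

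Msln had intensities of 136, 117 and 148 at E11.5, and 265, 328 and 382 at E12.5. It measured 371, 258 and 283 at E13.5, followed by 244, 191 and 273 at E14.5. The last days gave 344, 552 and 437 at E15.5 and 658, 750 and 935 at E16.5. The course of the mesothelin gene thus had a step at E12.5, a stretch of 3 days with overlapping values, and a second climb at E15.5 and E16.5. The 3 arrays of E16.5 lay above the other 15. From highest to lowest mean the days ran E16.5, E15.5, E12.5, E13.5, E14.5 and E11.5, and the neighbours from E15.5 to E14.5 in that order overlapped, while E14.5 and E11.5 did not. Mean log2 intensity was 9.59 ± 0.26 at E16.5 and 7.06 ± 0.17 at E11.5 (SD, n = 3 each), a difference of 2.54 or 5.80-fold. The E12.5 arrays exceeded the E11.5 arrays by 2.41-fold on average.

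Cldn15 had intensities of 185, 208 and 209 at E11.5, and 279, 346 and 411 at E12.5. It measured 359, 428 and 415 at E13.5, followed by 323, 311 and 343 at E14.5. The last days gave 424, 551 and 393 at E15.5 and 613, 938 and 664 at E16.5. The claudin gene, like Msln, had a first step at E12.5 and a second climb at E15.5 and E16.5. On this probe its E14.5 arrays all lay below its E13.5 arrays, where those of Msln overlapped. The mean log2 difference between those days was -0.30 for Cldn15 and -0.36 for Msln. All E16.5 arrays of this Cldn15 probe lay above the rest, and all its E11.5 arrays lay below the rest. The days between overlapped with their neighbours in order of mean. Mean log2 intensity was 9.50 ± 0.33 at E16.5 and 7.65 ± 0.10 at E11.5 (SD, n = 3 each), a difference of 1.86 or 3.62-fold. At E12.5 it was 1.70-fold above E11.5.

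Dmkn had intensities of 130, 124 and 113 at E11.5, and 105, 107 and 109 at E12.5. It measured 106, 108 and 109 at E13.5, followed by 109, 110 and 112 at E14.5. The last days gave 135, 373 and 163 at E15.5 and 399, 766 and 758 at E16.5. This Dmkn probe was above the floor on all 3 arrays of E11.5, on none of E12.5 or E13.5 and on 2 of 3 at E14.5, while the other kept probe was above it on all 3 of E11.5, 1 of E13.5 and none of E12.5 or E14.5. On the brightest probe the E16.5 arrays lay above all others, and every E15.5 array lay above every earlier one. On the other kept probe replicate 1 of E15.5, at 131, lay below replicate 1 of E11.5, at 134. Mean log2 intensity of the brightest probe was 9.26 ± 0.54 at E16.5 and 6.79 ± 0.02 at E14.5 (SD, n = 3 each). The difference was 2.47 or 5.55-fold. Against E11.5, at 6.94 ± 0.10, the difference was 2.33 or 5.02-fold.

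Lgals7 had intensities of 169, 163 and 178 at E11.5, and 168, 222 and 195 at E12.5. It measured 200, 177 and 145 at E13.5, followed by 153, 155 and 166 at E14.5. The last days gave 217, 504 and 310 at E15.5 and 608, 1064 and 956 at E16.5. This probe of the galectin-7 gene was above the floor on all 18 arrays, so its flat stretch from E11.5 to E14.5 is a measured level and not a bound. Below E16.5 the days overlapped with their neighbours in order of mean, and the E16.5 arrays stood apart above them. Mean log2 intensity was 9.74 ± 0.43 at E16.5 and 7.31 ± 0.06 at E14.5 (SD, n = 3 each), a difference of 2.43 or 5.39-fold. Against E11.5, at 7.41 ± 0.07, the difference was 2.32 or 5.01-fold.

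**Figure D1:**
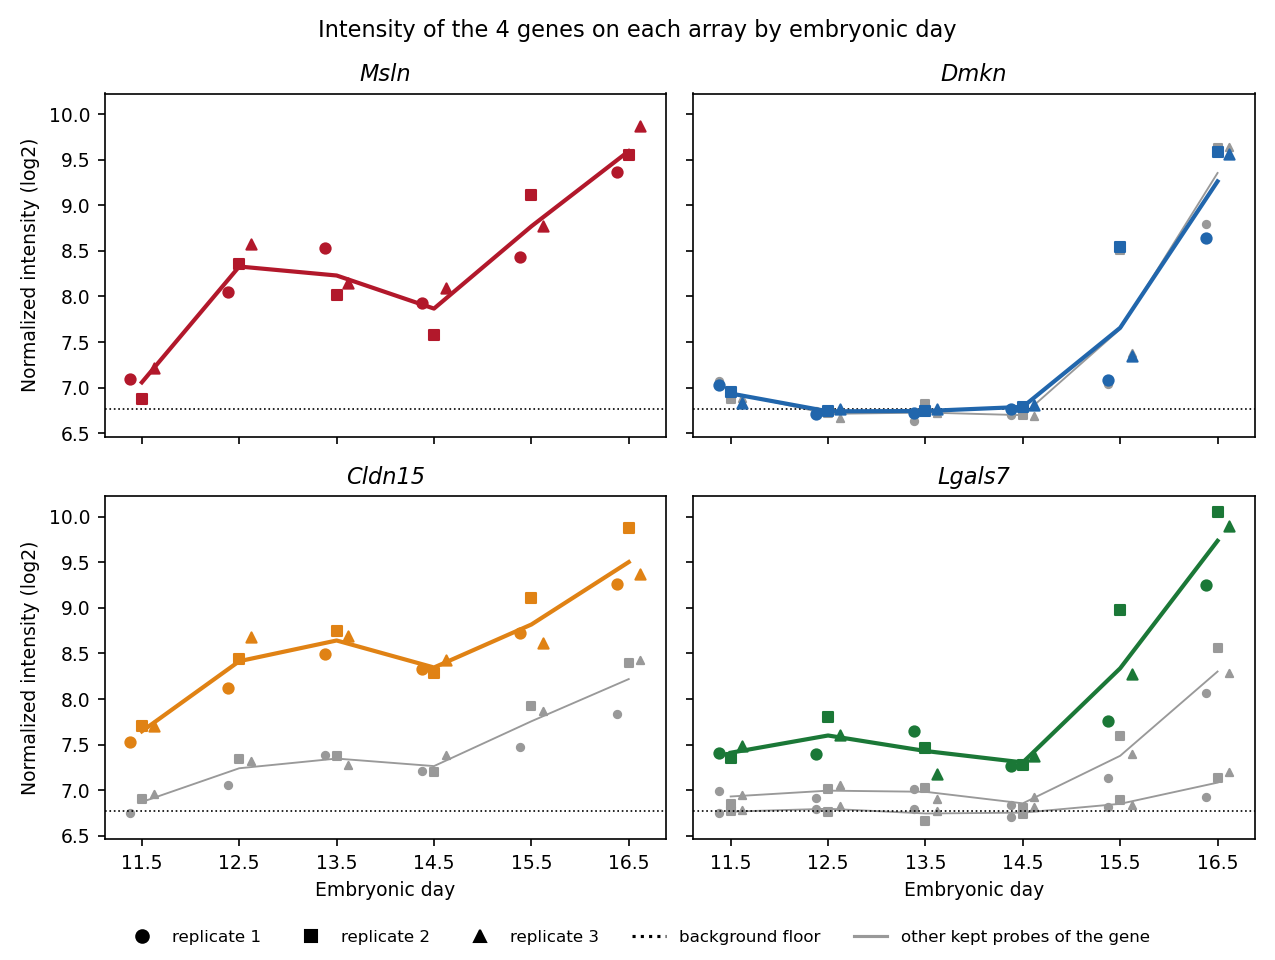
Normalized log2 intensity of Msln, Dmkn, Cldn15 and Lgals7 against embryonic day, with the brightest probe in colour, other kept probes in grey, 1 marker per array shaped by replicate number, lines through the daily means and the floor (6.77 on the log2 scale) dotted. For the brightest probe the 3 arrays of E16.5 sit above all earlier arrays in each panel, and Dmkn lies close to the floor from E12.5 to E14.5.

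For all 4 genes the 3 arrays of E16.5 lay above the 3 arrays of E11.5, which was so for 21.4% of all genes tested, and above the 3 of E14.5, which was so for 18.5%. These counts follow from how the genes were chosen. The first 2 days differed among the genes. Between E13.5 and E11.5 the log2 difference was 1.17 for Msln, 0.996 for Cldn15 and 0.02 for Lgals7. The brightest Dmkn probe, with its E13.5 arrays all under the floor, was at least 1.12-fold lower at E13.5. The log2 difference between E16.5 and E14.5 was 1.73 for Msln and 1.16 for Cldn15, against 2.47 for Dmkn and 2.43 for Lgals7. Of the full difference between E16.5 and E11.5, the last 2 days held 68.1% for Msln, 62.3% for Cldn15, 106% for Dmkn and 105% for Lgals7. The 449 other genes that were called higher and at least 2-fold up between E16.5 and E11.5 gave a median of 40.2%, with quartiles of 24% and 60.9%. Of these 449 genes, 89 were at or above Msln in this share, 109 at or above Cldn15, 9 at or above Dmkn and 10 at or above Lgals7. These ranks too follow from the choice of the 4 genes by their late levels and are a description.

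**Figure D2:**
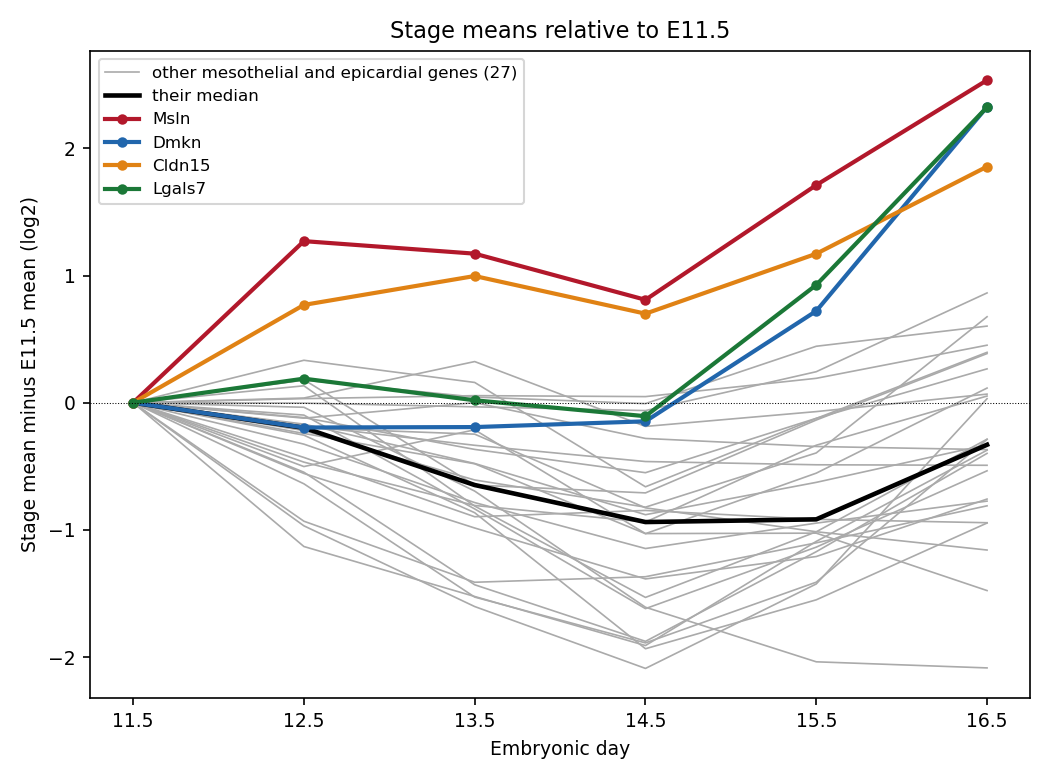
Mean log2 intensity by embryonic day relative to the E11.5 mean, for the 4 genes in colour and the 27 other mesothelial and epicardial genes tested in grey, with their median in black. Msln and Cldn15 depart upward at E12.5, Dmkn and Lgals7 after E14.5, while the median of the other genes lies lowest at E14.5.

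The other probes of the same genes varied in level and in the size of the late difference. A second Dmkn probe gave a log2 difference of 2.41 between E16.5 and E11.5 and, with its 3 arrays of E14.5 all under the floor, exceeded its E14.5 level at least 5.99-fold at E16.5. One more Dmkn probe was above the floor on 1 array of E15.5 and on none of E16.5, which is a difference between probes of the same gene. A second Cldn15 probe differed by 1.35 between E16.5 and E11.5. Its arrays overlapped between E16.5 and E15.5 and between E14.5 and E13.5. One more Cldn15 probe was under the floor throughout. The 2 dimmer Lgals7 probes gave log2 differences of 1.37 and 0.32 between E16.5 and E11.5. For the dimmest of them the intensity was 136 ± 13.0 at E16.5 and 109 ± 1.27 at E11.5 (SD, n = 3 each), close to background throughout. Because the background level is contained in the values, differences of dim genes are understated. After normexp background correction with an offset of 16 the log2 differences between E16.5 and E11.5 were 3.56 for Msln, 3.45 for Dmkn, 2.36 for Cldn15 and 3.0 for Lgals7.

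The 3 arrays of E15.5 differed widely for these genes, with replicate 2 the highest and replicate 1 or 3 the lowest. On the way from the E14.5 mean to the E16.5 mean, on the log2 scale, replicates 1, 2 and 3 of E15.5 had covered 32.5%, 71.9% and 52.3% of the step for Msln. The shares were 11.8%, 70.9% and 22.5% for Dmkn. For Cldn15 they came to 32.9%, 65.8% and 23.6%. Lgals7 had covered 18.7%, 68.8% and 39.9%. The same unevenness was present outside these genes, as 139 others called higher and at least 2-fold up between E16.5 and E14.5 had a median of 23.8%, 87.7% and 56.5% on the 3 arrays. A single day's mean at E15.5 therefore covers a wide spread, with an SD of 0.78 for Dmkn and 0.61 for Lgals7 on the log2 scale.

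Markers of other cell types also moved over these days, and in bulk samples fewer cells of a type and less RNA per cell cannot be told apart. The mean log2 intensity of 22 cardiomyocyte genes was 8.52 to 8.87 at E11.5, 8.89 to 9.32 at E12.5, 8.97 to 10.02 at E13.5 and 10.45 to 10.64 at E14.5. It was 10.89, 8.78 and 9.08 on the 3 arrays of E15.5 and 10.68, 9.09 and 8.79 on those of E16.5. Heart muscle genes were thus high on all 3 arrays of E14.5 and on replicate 1 of E15.5 and of E16.5, while they were low on the others from those days. Replicate 1 was also the lowest E16.5 array for all 4 genes, and the lowest E15.5 array for all but Cldn15. The summed intensity of the cardiomyocyte genes reached 76996 to 84388 at E14.5, 22269 to 89937 at E15.5 and 21386 to 79003 at E16.5. On replicate 1 of E16.5, where the cardiomyocyte mean was within 0.14 of the E14.5 mean, Msln was 1.50 above its E14.5 mean on the log2 scale. On that array the value was 1.85 above for Dmkn, 0.91 for Cldn15 and 1.94 for Lgals7. The 27 other mesothelial and epicardial genes had a median of 0.65 above on the same array, with 20 of the 27 above their E14.5 means. With replicate 1 of E15.5 and of E16.5 set aside, the log2 differences between E16.5 and E14.5 were 1.84 for Msln, 2.79 for Dmkn, 1.28 for Cldn15 and 2.67 for Lgals7.

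Genes of blood vessel cells were higher late than early. The mean log2 intensity of 19 endothelial genes was 7.16 to 7.22 at E11.5, where 7 of the 19 were under the floor on all 3 arrays, 9.44 to 9.62 at E14.5 and 10.19 to 10.42 at E16.5. Of these 19 genes, 18 were called higher at E16.5 than at E11.5, against 16% of all genes. Between E16.5 and E14.5, 16 were called higher, against 9.89% of all genes, and 1 was called lower, Plvap, a gene of the diaphragms of vessel pores, which was chosen after its values were seen. The part of this vascular signal in the levels of the 4 genes was not tested. Among the other lists, 9 of 14 fibroblast genes, 3 of 10 smooth muscle and pericyte genes, 5 of 7 red cell genes and 3 of 5 leukocyte genes were called higher at E16.5 than at E11.5, against 16% of all genes. In the same comparison 1 fibroblast gene and 1 smooth muscle gene were called lower, against 18.8% of all genes. Over the last 2 days, E16.5 against E14.5, the smooth muscle and pericyte list had 1 gene called higher and 4 lower, and the fibroblast list 6 higher and 1 lower. The red cell and leukocyte lists each had 3 higher and 1 lower. Of all genes, 9.89% were called higher and 7.86% lower in that comparison. Their part in the levels of the 4 genes was not tested either.

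**Figure D3:**
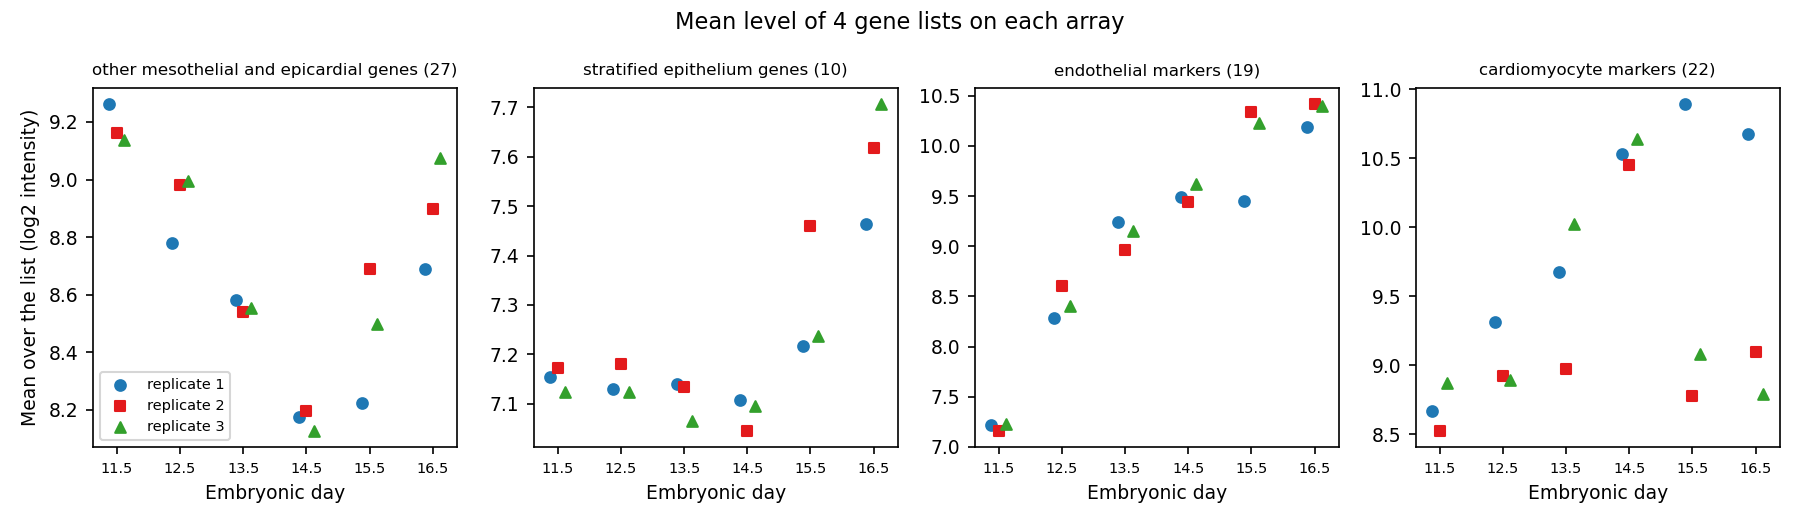
Mean log2 intensity of the listed genes on each of the 18 arrays, by embryonic day, with 1 marker per array. The cardiomyocyte list lies between 10.45 and 10.89 on the 3 arrays of E14.5 and on replicate 1 of E15.5 and E16.5, and the endothelial list lies highest at E16.5 and on replicates 2 and 3 of E15.5.

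Many other genes of mesothelium and epicardium fell over the first 2 days or rose over the last 2. The list, which leaves out the 4 genes, held 35 genes, of which 31 are on the array and 27 were tested, and 24 of these were above the floor on all 18 arrays. Between E13.5 and E11.5, 15 of the 27 were called lower, with limma at a Benjamini-Hochberg adjusted p under 0.05, where 8.77% of all genes were. None of the 27 was called higher (0 also at an unadjusted p under 0.05), where 8.58% of all genes were. Between E16.5 and E14.5, 18 of 27 were called higher, against 9.89% of all genes, and 1 was called lower, against 7.86%. The median log2 difference over the 27 genes was -0.65 in the first window and 0.82 in the second. For 19 of the 27 genes the lowest daily mean was that of E14.5, as it was for 14.9% of all genes. Both windows together caught 11 genes, which were 11 of the 15 that fell early and 11 of the 18 that rose late, as they caught 97 of the 10813 genes tested.

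Keratins and uroplakins, which carry the epithelial character of mesothelium, were among the genes with this dip. The values of Krt8, Krt18, Hpgd and Upk1b in these windows were chosen after they were seen. Krt8, a keratin of simple epithelia, had log2 intensities of 9.72 ± 0.27 at E16.5 and 7.60 ± 0.05 at E14.5 (SD, n = 3 each), and the rise of 2.12 ± 0.24 (SE) had an adjusted p of 8.57e-05 in limma. Between E13.5 and E11.5 it fell by 1.60 (adjusted p = 0.000287, limma). Its partner Krt18 rose by 1.60 late, Hpgd, which encodes a prostaglandin-degrading enzyme, by 1.54, and Upk1b, a uroplakin, by 1.48. Over the same first days, E13.5 against E11.5, the log2 difference was 1.17 for Msln, 0.996 for Cldn15 and 0.02 for Lgals7. For Dmkn it was -0.19 and -0.22 on the kept probes, with values near the floor. The Dmkn probe that did not pass the filter gave -0.007.

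Between E16.5 and E11.5, where 34.7% of all genes were called, 4 of the 27 were called higher, against 16% of all genes. Another 10 were called lower, against 18.8%. Their log2 differences ran from -2.09 to 0.86, with a median of -0.33, against 1.86 to 2.54 for the 4 genes, and no test of that gap was made because the 4 were chosen by it. The largest rise was that of Anxa8, an annexin that was under the floor through E14.5 and at least 1.71-fold above its E11.5 level at E16.5 (log2 difference 0.86 ± 0.11 SE, adjusted p = 2.35e-05). Krt19, a keratin of simple epithelia, was called higher by 0.68 ± 0.23 (SE, adjusted p = 0.0356). That call was lost when any 1 array of E11.5 or replicate 2 or 3 of E16.5 was left out. Cpe, a carboxypeptidase that trims prohormones, rose by 0.60 (adjusted p = 0.00785). Calb2, encoding the calcium-binding protein calretinin, fell at least 3.87-fold. The transcription factor genes Tcf21 and Scx fell by 1.48 and 1.16 on the log2 scale (adjusted p = 1.14e-05 and 9.33e-06).

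**Figure D4:**
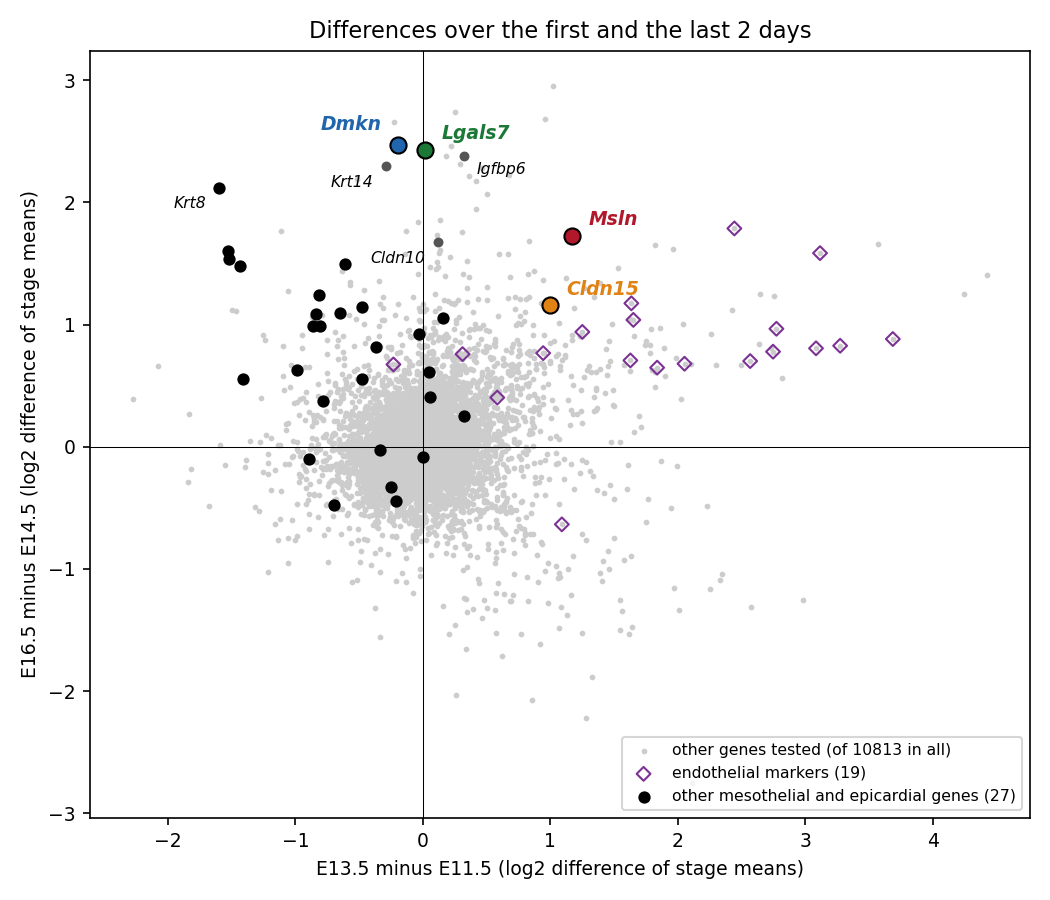
Log2 difference of each of the 10813 genes tested between E13.5 and E11.5 (horizontal) and between E16.5 and E14.5 (vertical), with the 4 genes in colour, 27 other mesothelial and epicardial genes in black and 19 endothelial genes as diamonds. Dmkn and Lgals7 lie at the top near 0 on the horizontal axis, Msln and Cldn15 lie to the right among positive values on both axes, and most other mesothelial genes lie at the upper left.

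Among relatives of Cldn15, a part of the tight junction genes rose late. The list of claudin and tight junction genes, of which 16 were tested, also held the cadherin genes Cdh1 and Cdh3. Of the 16, 5 were called higher and 0 lower at E16.5 than at E14.5 (adjusted p under 0.05, limma). Their median log2 difference was 0.14, and 9.89% of all genes were called higher. In that comparison 1 was lower at an unadjusted p under 0.05. Between E16.5 and E11.5, 4 were higher and 2 lower, near the 16% and 18.8% of all genes, with a median of 0.06. Cldn10, which like Cldn15 encodes a claudin that forms ion pores, was above the floor on no array of E11.5 or E12.5, 1 of E13.5, 2 of E14.5 and all 3 of each later day. Its E16.5 level was at least 3.22-fold that of E11.5 (log2 difference 1.83 ± 0.27 SE, adjusted p = 7.87e-05), and 1.68 higher than at E14.5 (adjusted p = 0.000791). Cldn5, the main claudin of endothelial cells, rose by 5.50 over the whole course and belongs also to the endothelial list. Cldn1, a barrier-forming claudin, rose by 0.50 (adjusted p = 0.0034). The 2 genes of this list called lower at E16.5 than at E11.5 were the cadherin gene Cdh3 and Cgnl1. Their log2 differences were -0.93 and -0.78 (adjusted p = 0.000264 and 0.000118, limma).

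Some galectins other than Lgals7 rose. Of 7 galectin and galectin-binding genes, 4 were called higher at E16.5 than at E14.5, where 9.89% of all genes were, and 4 higher at E16.5 than at E11.5, where 16% of all genes were. The medians were 0.43 and 0.65. In limma 0 were called lower in either comparison, and 1 in each was lower at an unadjusted p under 0.05. Lgals3, encoding galectin-3, had a course close to that of Lgals7, with log2 intensities of 6.68 ± 0.03 at E14.5, under the floor on all 3 arrays, 7.23 ± 0.43 at E15.5 and 8.09 ± 0.16 at E16.5 (SD, n = 3 each). The E16.5 level of Lgals3 was at least 2.50-fold that of E14.5 (log2 difference 1.42 ± 0.15 SE, adjusted p = 4.78e-05). Lgals9, encoding galectin-9, rose by 1.01 over the same days (adjusted p = 0.000355), and Lgals3bp, whose product binds galectins, by 0.57 (adjusted p = 0.00168).

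Dmkn and Lgals7 are both known from stratified epithelium, and most genes of that tissue were not seen here. Of 30 listed genes, 27 are on the array and 10 were above the floor on enough arrays to be tested. Between E16.5 and E14.5, 4 of these were called higher and 0 lower, with a median of 0.03, where 9.89% of all genes were higher. At an unadjusted p under 0.05 the count lower was also 0. Between E16.5 and E11.5, 4 were higher, against 16% of all genes, and 1 was lower, against 18.8%. The gene that fell was Krt10, a keratin of upper epidermal layers, at -0.24 (adjusted p = 0.0339). Its call was lost without replicate 2 or 3 of E11.5 or replicate 3 of E16.5. Krt14, a keratin of basal epidermal cells, had log2 intensities of 9.99 ± 0.41 at E16.5 and 7.70 ± 0.14 at E14.5 (SD, n = 3 each), a rise of 2.29 ± 0.29 (SE, adjusted p = 0.000159). The plakin genes Evpl and Ppl, which encode envoplakin and periplakin of the cell envelope, rose by 1.20 and 1.23 (adjusted p = 5.99e-05 and 0.000663), with Ppl chosen after its values were seen. Sbsn, a secreted protein of the upper epidermis, was the fourth, at 0.61 ± 0.10 (SE, adjusted p = 0.000967). Between E13.5 and E11.5 no gene of the 10 was called in either direction, where 8.58% of all genes were called higher and 8.77% lower, so that a count of 0 of 10 is near the background. At an unadjusted p under 0.05 it was also 0.

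Of a list of genes for GPI-anchored or mesothelin-related proteins, 14 were tested. The mesothelin-related genes Mslnl, Otoa and Strc were not among them, so the counts do not cover these. At E16.5 against E14.5, 6 of the 14 were called higher and 0 lower, with a median of 0.25. Of all genes, 9.89% were called higher. At an unadjusted p under 0.05, 2 were lower. Between E16.5 and E11.5, 5 were higher, against 16% of all genes, and 1 was lower, against 18.8%. The 1 lower, the glypican gene Gpc3, lost its call without replicate 2 or 3 of E11.5 or replicate 1 or 2 of E16.5. Ly6c1, a GPI-anchored surface antigen found on endothelial and blood cells, rose at least 2.69-fold between E16.5 and E11.5 (adjusted p = 1.85e-07). Efna1, a GPI-anchored ephrin ligand, rose by 2.44 (adjusted p = 1.16e-07), and Cd109, a GPI-anchored protein that binds TGF-beta, rose at least 2.05-fold (adjusted p = 5.82e-06). Muc16, the mesothelin partner, is not on the array. Of 16 p53 target genes tested, 2 were called higher and 0 lower at E16.5 than at E14.5, a share near the 9.89% of all genes, and 2 were lower at an unadjusted p under 0.05. At E16.5 against E11.5, 5 of the 16 were higher, against 16% of all genes, and 2 lower, against 18.8%. Cdkn1a, the cell cycle inhibitor p21, rose by 0.93 over the whole course (adjusted p = 7.91e-06), and Plk2, a polo-like kinase, by 1.52 (adjusted p = 2.15e-06). Plk2 was not called between E16.5 and E14.5 (adjusted p = 0.0855, limma). The 2 lower over the whole course were Mdm2 and Phlda3, at -0.23 and -0.27 (adjusted p = 0.0209 and 0.0413, limma).

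Dmkn lies on chromosome 7 between Sbsn and Krtdap in RefSeq's gene order for assembly GRCm38.p6. The products of all 3 genes are known from the skin's upper layers. Sbsn had intensities of 121, 114 and 119 at E14.5, 122, 166 and 138 at E15.5, and 156, 189 and 199 at E16.5. Replicate 2 was highest at E15.5, as for all 4 genes and for the median of the 139 others that rose late. The E16.5 arrays lay above the E14.5 arrays without overlap. Krtdap was not tested, since neither of its 2 probes was above the floor on 3 arrays. One of them had intensities of 106, 119 and 114 at E16.5, 2 of them above the floor, and 91.3 to 98.4 on the other 15 arrays, while the second stayed level. The Sbsn and Krtdap windows are shown because these genes flank Dmkn, at chr7:30751221-30751520 and chr7:30787655-30787954 on the + strand, with TGANTCA in capitals.
Sbsn: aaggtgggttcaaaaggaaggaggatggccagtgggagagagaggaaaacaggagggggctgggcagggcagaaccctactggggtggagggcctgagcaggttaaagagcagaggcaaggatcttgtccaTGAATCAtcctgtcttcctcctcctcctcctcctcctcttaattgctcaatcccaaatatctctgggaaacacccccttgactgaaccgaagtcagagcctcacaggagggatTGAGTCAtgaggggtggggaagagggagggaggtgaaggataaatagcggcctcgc
Krtdap: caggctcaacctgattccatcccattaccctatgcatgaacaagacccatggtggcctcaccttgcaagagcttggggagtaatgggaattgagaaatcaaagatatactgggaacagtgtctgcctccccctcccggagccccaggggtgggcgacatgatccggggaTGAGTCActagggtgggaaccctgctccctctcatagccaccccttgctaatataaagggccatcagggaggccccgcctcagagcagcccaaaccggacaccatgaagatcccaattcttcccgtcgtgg
The Sbsn window holds the motif 2 times, as TGAATCA at -119 and as TGAGTCA at -6, and the Krtdap window holds TGAGTCA at -81. Of the 3 annotated genes nearest on either side of each of the 4 genes, 24 in all, 18 are on the array and 14 were tested. Of these 14, 1 was called higher at E16.5 than at E14.5, Sbsn, where 9.89% of all genes were. At E16.5 against E11.5, 2 were called higher, where 16% of all genes were, and 5 lower, where 18.8% were. These shares of neighbours called higher are near those of all genes. Lgals4, the galectin gene next to Lgals7 on chromosome 7, differed by 0.01 between E16.5 and E11.5 (adjusted p = 0.916). Beside Msln on chromosome 17, Chtf18, whose product loads the replication clamp, fell by 0.59 (adjusted p = 0.000281) and Haghl fell by 1.18 (adjusted p = 0.00325). Beside Cldn15 on chromosome 5, Fis1, a mitochondrial fission gene, fell by 0.54 (adjusted p = 0.00463), and Plod3, a collagen lysyl hydroxylase, rose by 0.33 (adjusted p = 0.01).

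**Figure D5:**
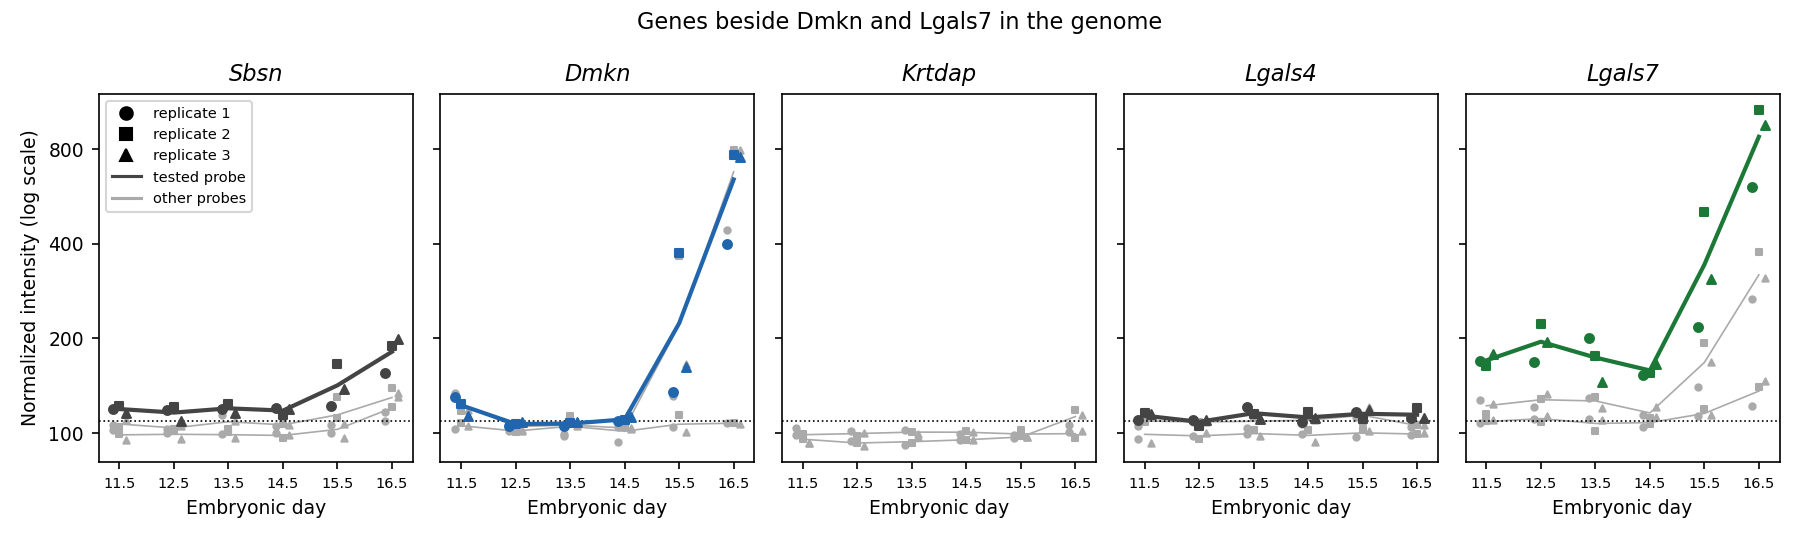
Normalized intensity (log scale) by embryonic day of Dmkn with its neighbours Sbsn and Krtdap, and of Lgals7 with its neighbour Lgals4, with the tested probe in dark or colour, other probes in grey, 1 marker per array and the floor of 109.2 dotted. Sbsn, 1 probe of Krtdap, Dmkn and Lgals7 are each highest at E16.5, and Lgals4 stays level near the floor.

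The likeness of courses was measured as Pearson's r of log2 intensities over the 18 arrays, which share their days, and it is given with no p. Among the 4 genes it was highest between Dmkn and Lgals7, at 0.978, and between Msln and Cldn15, at 0.931. For the other pairs it lay between 0.774 and 0.851. Spearman's rho gave another order, with 0.87 for Msln and Cldn15, 0.814 for Msln and Lgals7, 0.682 for Cldn15 and Lgals7, and 0.591 for Dmkn and Lgals7. After each day's mean was removed, r was 0.881 for Dmkn and Lgals7 and 0.704 for Msln and Lgals7. It was 0.597, 0.575 and 0.567 for the 3 other pairs that join Dmkn or Lgals7 to Cldn15 or Msln, and 0.348 for Msln and Cldn15. The spread within a day was uneven, with an SD for Dmkn of 0.78 at E15.5 and 0.02 at E14.5. The E15.5 arrays also differed for other genes that rose late. Whether these values of r are particular to the 4 genes was not tested.

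Of 846 other genes whose daily means spanned at least 1 on the log2 scale, those most like Dmkn were Lgals3 at r = 0.991, the interleukin-18 receptor gene Il18r1 at 0.982, Igfbp6, which encodes a binding protein for insulin-like growth factors, at 0.981, the adhesion receptor gene Adgrd1 at 0.980 and the vesicle motor gene Myo5b at 0.978. Those most like Lgals7 were Lgals3 at 0.984, Igfbp6 at 0.983, the orphan receptor gene Mrgprf at 0.982, Krt14 at 0.981 and Chrd, encoding the BMP antagonist chordin, at 0.980. The genes nearest to Dmkn and to Lgals7 thus overlapped, with Lgals3 and Igfbp6 in both. Their log2 differences between E16.5 and E14.5 ran from 1.11 to 2.38, and those between E13.5 and E11.5 from -0.29 to 0.32. Some of these values rest on arrays under the floor. Il18r1 was above it on no array of E11.5, E13.5 or E14.5, Lgals3 on none of E13.5 or E14.5, and Adgrd1 and Igfbp6 on none of E11.5. The early differences of Il18r1 and Lgals3 thus lie near background, and their r rests mostly on the last days. Set against the floor, the late rise comes to 1.92-fold or more for Il18r1 and 2.5-fold or more for Lgals3.

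For Msln the nearest genes were the interferon-induced gene Ifi27 at 0.957, the BMP antagonist gene Nbl1 at 0.949, Hs3st1, which encodes a heparan sulfate sulfotransferase, at 0.945, the secreted protease gene Htra1 at 0.944 and Spsb1 at 0.940. For Cldn15 they were the interferon-induced membrane protein gene Ifitm3 at 0.942, the lysosomal sulfatase gene Arsb at 0.941, Htra1 at 0.938, Hs3st1 at 0.928 and C77080 at 0.925. Htra1 and Hs3st1 stood in both. The early difference of these genes was positive, from 0.42 to 1.07 for those near Msln and from 0.52 to 1.82 for those near Cldn15. Against the mean of the 4 genes' standardized values the highest r belonged to Pdlim4 at 0.983, Igfbp6 at 0.980, the lipase gene Daglb at 0.979, Slc23a3 at 0.978 and Nbl1 at 0.976, followed by Evpl, Chrd, Mrgprf, Rarres2 and Nr4a2 between 0.964 and 0.970. Rarres2 encodes chemerin, a secreted chemoattractant, and Nr4a2 an orphan nuclear receptor.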

How the data were processed

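Per the labels, RNA of sorted cells was hybridised to 18 Illumina bead arrays, 3 per day. GenomeStudio 2011.1 was used, per the submitters' processing notes. For normalization, the method is not given in the sources used here. Linear intensities were deposited, from 83.8 to 17358 (median 104). Sorted columns differed by at most 2.04, so the authors' intensities are quantile normalized. A second table, with 36 per-sample columns whose running numbers match no label, was not used here, and log2 of the deposited intensities was analysed.

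The background mode was 99.2 intensity units with an SD of 0.0599 (log2), and of 45281 probes 19967 passed the filter of 3 arrays above the floor. By the platform annotation 34885 probes have 1 gene symbol, 18 have several and 10378 have none. The brightest kept probe stood for a gene, which left 10813 genes. "At least N-fold" sets the bright day's mean against the floor where all 3 arrays of the dim day were under it. Differences were tested with limma 3.58.1 in R 4.3.3 over all 18 arrays with 1 mean per day (12 residual degrees of freedom) and Benjamini-Hochberg adjustment, with calls made under an adjusted p of 0.05. The script was tested on simulated data. The median log2 difference of all genes between E16.5 and E11.5 was -0.03.

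The 4 genes and the gene lists were chosen with earlier results of these data known. Named were the 4 genes, the 5 genes most like each and 10 most like their mean, from each list the 3 called genes with the largest rise and fall between E16.5 and E11.5, and 3 neighbours on either side. Only some of these are printed, and other genes are said to be chosen after their values were seen. The labels do not say whether replicates are separate litters, and p-values therefore reflect only the spread among these arrays, which may be technical. The deviations of same-numbered arrays from the day means correlated at 0.253, 0.293 and 0.207 for replicates 1, 2 and 3 of E16.5 and E11.5. The labels do not say that these numbers pair the arrays, arrays of unlike number were not compared, and the main fit used no pairing. Alternatives were the dim-probe filter, the floor, normexp, cyclic loess, array weights, the arrays in the fit, a replicate block, other probes, setting aside the 2 late arrays with high cardiomyocyte genes, and leaving out each array. The number of arrays limits the precision.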

Additional observations from a re-analysis of the deposited data

How the results depend on the processing

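The differences of the 4 genes between E16.5 and E11.5 and between E16.5 and E14.5 kept their sign under every alternative in which they were computed. The genes were chosen for their late levels and their arrays of these days did not overlap, so leaving out an array could not change the sign. The difference near 0 of Lgals7 between E13.5 and E11.5 was 0.02 on its brightest probe and -0.02 on its dimmest. After normexp with an offset of 16, the log2 differences between E16.5 and E11.5 were 3.56 for Msln, 3.45 for Dmkn, 2.36 for Cldn15 and 3.0 for Lgals7, and those between E16.5 and E14.5 were 2.14 for Msln, 3.84 for Dmkn and 3.19 for Lgals7. With an offset of 50 the first were 2.96 for Msln, 2.78 for Dmkn and 2.63 for Lgals7, and the second 3.0 for Dmkn and 2.77 for Lgals7. The second Cldn15 probe gave 1.35 between E16.5 and E11.5. The dimmer Lgals7 probes gave 0.32 and 1.37 between E16.5 and E11.5, and 0.33 and 1.45 between E16.5 and E14.5. With each array left out in turn, the differences between E16.5 and E11.5 ranged from 2.40 to 2.65 for Msln, 2.17 to 2.64 for Dmkn, 1.67 to 1.98 for Cldn15 and 2.16 to 2.57 for Lgals7. Those between E16.5 and E14.5 ranged from 1.58 to 1.84 for Msln, 2.31 to 2.79 for Dmkn, 0.97 to 1.28 for Cldn15 and 2.27 to 2.67 for Lgals7.

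The counts of genes called depended more on the settings, and the cause was not tested. Between E13.5 and E11.5, 1876 genes were called, against 4137 with array weights, 1068 with only the 2 days in the fit, and 1249 to 3251 with each array left out, lowest without replicate 3 and highest without replicate 1 of E13.5. Between E16.5 and E14.5, 1919 were called, against 3768 with array weights and 1053 to 2523 with each array left out, lowest without replicate 3 of E16.5 and highest without replicate 1 of E13.5. It was 1235, 1103 and 1221 without replicates 1, 2 and 3 of E14.5 and 1194 without replicate 2 of E16.5. Between E16.5 and E11.5, 3757 were called, and 3149 to 4327 with each array left out. Of the 27 other mesothelial genes, 12 to 19 (18 with all arrays) were called higher and 0 to 2 lower at E16.5 than at E14.5 in those fits, 0 to 1 higher and 12 to 17 lower at E13.5 than at E11.5, and 3 to 5 higher and 9 to 12 lower at E16.5 than at E11.5. The 1 called lower at E16.5 than at E14.5 became 2 with normexp at an offset of 16, 2 with array weights and 3 with only the days compared. With array weights 1 was called higher at E13.5.

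With replicate number as a block, the same counts were 4126 genes between E16.5 and E11.5, 2210 between E13.5 and E11.5 and 2228 between E16.5 and E14.5, and 1 mesothelial gene in place of 0 was called higher at E13.5. The block ended no call of a named gene. The deviations of same-numbered arrays of E13.5 and E11.5 correlated at 0.266, 0.26 and 0.017 for replicates 1, 2 and 3. Those of E16.5 and E14.5 correlated at 0.342, 0.262 and 0.056. Of 616 values of 56 named differences under 11 alternatives, with the fits that leave out 1 array taken as 1 alternative by their largest adjusted p, 606 stayed on the same side of the threshold and 10 lost the call, all of Krt19, Krt10 or Gpc3. Counted fit by fit, leaving out 1 array ended the call in 5 fits for Krt19, 3 for Krt10 and 4 for Gpc3. Whether the calls of Mdm2, Phlda3, Cdh3 and Cgnl1 held under these alternatives is not given here. Low signal limits the view of Dmkn from E12.5 to E14.5, of Krtdap, of the dimmer Lgals7 probes, and of Il18r1 and Lgals3 at E13.5 and E14.5.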
